A study of Mus musculus with 2 samples.

Results

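Smo and 8 further core genes of the Hedgehog pathway (Ptch1, Gli1, Gli2, Gli3, Sufu, Ihh, Dhh and Shh) were followed in mouse regulatory T cells with and without Hopx. They were taken as every probe set that the platform annotation assigns to 1 of these 9 symbols, which gave 20 probe sets, out of 18193 genes named by 34945 probe sets. The pathway was chosen by the measured difference of Smo, already known to be among the most reduced genes of these arrays, so the difference of Smo is a description and supports nothing by itself. No probe set named a member together with another gene.

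The arrays compared Hopx-/- with Hopx-sufficient T cells from mice, at 1 array per genotype. Both samples were regulatory T cells induced in vivo by dendritic cells (DCs) after immunization, and both were sorted by flow cytometry for cells positive for CD25 and Foxp3. Hopx is a small homeodomain protein that does not bind DNA itself and acts through partner factors. The labels give no strain, age, time after immunization, number of mice or deleted part of Hopx, and the Hopx-sufficient sample is not said to be wild type.

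In the Hedgehog pathway the secreted ligands Shh, Ihh and Dhh bind the receptor Ptch1, which otherwise holds the membrane protein Smo inactive. Active Smo acts, in most cell types at the primary cilium, to free the Gli transcription factors from their inhibitor Sufu, and Gli1 and Ptch1 are themselves standard target genes of the pathway. In T cells Hedgehog signalling is known from thymocyte development and from the synapse of cytotoxic cells, and lymphocytes are generally held to lack a primary cilium.

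The promoter-side sequence of Smo is shown because Smo is the member with the largest mean difference between the arrays. It is the stretch of 250 bases that ends just before the RefSeq start of Smo, at chr6:29735247-29735496 on the + strand of GRCm38.p6.
Smo: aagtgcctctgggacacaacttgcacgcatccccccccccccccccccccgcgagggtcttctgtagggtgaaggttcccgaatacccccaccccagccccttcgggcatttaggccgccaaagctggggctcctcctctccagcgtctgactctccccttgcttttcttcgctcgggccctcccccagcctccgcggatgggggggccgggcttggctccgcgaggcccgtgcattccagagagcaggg
The stretch was 68.4% G or C and held 15 CpG dinucleotides, against medians of 52.4% and 6 over 32851 such RefSeq windows of mouse genes. Windows were at hand for 7 of the 9 members, leaving out Gli1 and Shh, and 4 motifs were searched in them on both strands. The GC box GGGCGG, the site bound by Sp1-type factors, was found in the windows of 6 members (Ptch1, Gli2, Gli3, Sufu, Ihh and Dhh). It was not found in that of Smo, and 32.7% of all windows held it. The windows of Ptch1 and Gli2 lie inside the annotated spans of these genes and so not upstream of their outer ends. That of Dhh overlaps the outer end of its gene in part. None of the 7 windows held the GLI site GACCACCCA, the E-box CACGTG or the CArG box that serum response factor binds. Of all windows 0.225%, 6.02% and 1.47% held these motifs, in the same order, so the sequence above carries no capitals.

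The deposited values are on a log scale, taken as log2, and every probe set was centred on its mean over both arrays. The columns are therefore mirror images and keep the difference between the arrays but no level, so whether a transcript was detected, and which of 2 genes was more abundant, cannot be given. Differences below are log2 values, Hopx-/- minus Hopx-sufficient. With 1 array per genotype there is no replicate check and no test, 2-fold and 1.5-fold are rules of size, and the only spread that can be shown lies between probe sets of the same gene, with a pooled standard deviation (SD) of 0.18. The labels could be checked on Hopx, whose probe sets differed by -4.86 and -5.43.

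Smo, the transducer of the pathway, was lower in Hopx-/- cells by 2 of its 3 probe sets and not by the third. Probe set 1427049_s_at stood at -1.09 on the Hopx-/- array and 1.09 on the Hopx-sufficient array, a difference of -2.18 (4.55-fold lower). Probe set 1427048_at stood at -0.73 on the Hopx-/- array and 0.73 on the Hopx-sufficient array, a difference of -1.45 (2.73-fold lower). Among the 34945 probe sets with 1 symbol these were the 5th and the 15th lowest. Probe set 1442215_at stood at -0.018 on the Hopx-/- array and 0.018 on the Hopx-sufficient array, and its difference of -0.035 had 41.6% of all probe sets below it. In a sorted population, fewer cells with a transcript and less transcript per cell cannot be told apart.

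The mean over the 3 probe sets of Smo was -1.22 ± 1.09 (SD between probe sets), or 2.34-fold lower, the 11th lowest of all genes. Over the 2 low probe sets it was -1.82 (3.52-fold lower). Smo was the 1 member of 9 at least 2-fold lower, where 0.137% of all genes were (25 genes), and no member was at least 2-fold higher, where 0.011% of all genes were. By probe sets, 0.14% of all were at least 2-fold lower (49), and 2 of these 49 belong to Smo; none of the members was among the 0.0143% at least 2-fold higher. Without 1427049_s_at, which is also the result over plain _at probe sets, the mean of Smo was -0.74 and no member (0 of 9) was 2-fold lower. The members were chosen with this contrast in view, so nothing is read from that count.

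**Figure D1:**
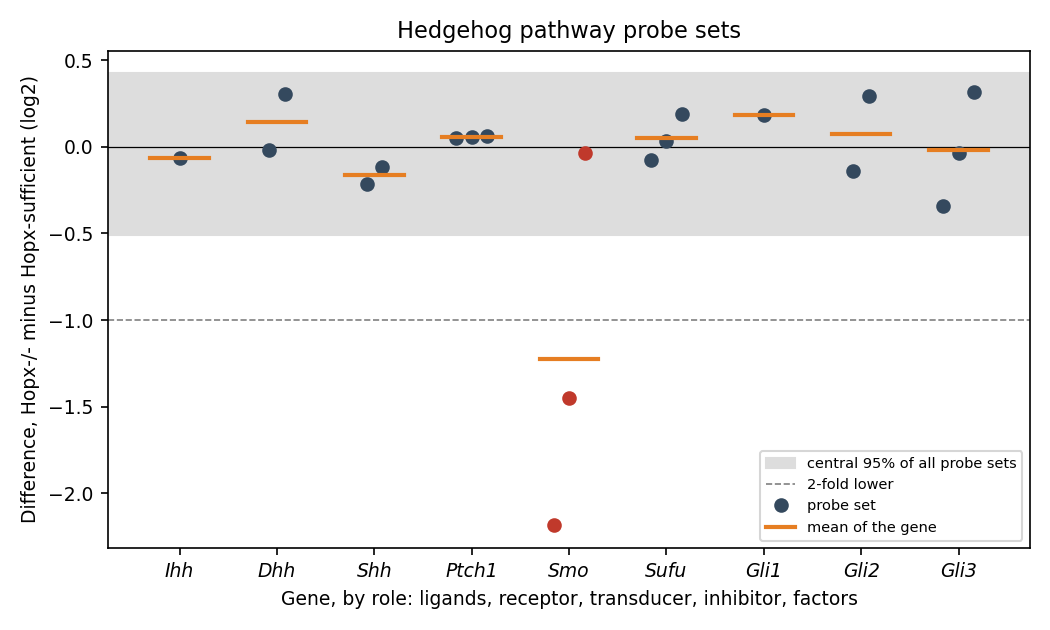
Log2 difference, Hopx-/- minus Hopx-sufficient, of each probe set (points) and the mean of each gene (orange bars) for the 9 Hedgehog pathway genes, ordered by role; the grey band holds the central 95% of all 34945 probe sets. Only 2 probe sets of Smo, at -2.18 and -1.45, leave the band, while the third lies at -0.035.

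The probe sets of Smo did not give 1 size of difference. They spanned 2.15, against a median of 0.27 and a 95th percentile of 0.64 over the 2366 genes with 3 probe sets. No other of the 9010 genes with 2 or more probe sets spanned as much, and the next of the genes with 3 was Dhx58, an RNA sensor gene of the interferon system, with 1.21 between -0.75 and 0.46. Of the 2366 genes, 2 had at least 2 of their 3 probe sets 2-fold lower. In the inducible Hsp70 gene Hspa1b all 3 were, between -1.40 and -1.34, while in Smo the third was not. Smo was chosen for its low values and most genes lie near 0, so the rank of its span is partly set by that choice. The span rests as well on the third probe set near 0, since the probe sets of Hspa1b were low and close together. It is given as a description only.

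The 2 low probe sets of Smo were designed from the same database sequence and the third from another, per the platform annotation. They are thus not independent measurements of the transcript, and they differed by 0.73. Over all genes, pairs of probe sets designed from the same sequence differed by a median of 0.14 (5219 pairs, 95th percentile 0.48), and pairs from different sequences by 0.16 (25153 pairs, 95th percentile 0.53). Most of these pairs lie near 0, where gaps are small, so the gap within Smo, chosen for its low values, is set beside them as a description only. The lower of the 2 carries the suffix _s_at, which the manufacturer gives to probe sets whose probes match more than a single transcript. Which part of the transcript each probe set covers was not analysed here.

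The deposited digits carry 1 further mark, looked for after the differences had been seen. The value of 1442215_at, the probe set of Smo near 0, was shared to the last digit by 11 other probe sets. Shared values are frequent near 0 and nearly absent further out, where 3 of the 724 probe sets at least 1.5-fold apart had one, so that the low probe sets of Smo had none follows from their size. Over the whole table, 16372 of 45101 probe sets (36.3%) shared their value with another, and of the 20 probe sets of the members 7 did (35%). Among these 7 were the only probe set of Gli1, shared with 5 others, and 1450824_at and 1439663_at of Ptch1, shared with 1 and 2 others. The share was 56.8% of 44 probe sets of olfactory receptor genes and 56.7% of 104 of keratin genes. It was 13.3% of 90 probe sets of ribosomal protein genes, 15.4% of 78 of proteasome genes and 4.55% of 88 of complex I genes. The size of the difference, on which sharing depends, was not held fixed between these families, so nothing about expression is read from them. How such shared values arose was not tested, and they show neither a level nor a lack of expression for any probe set of Smo.

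**Figure D2:**
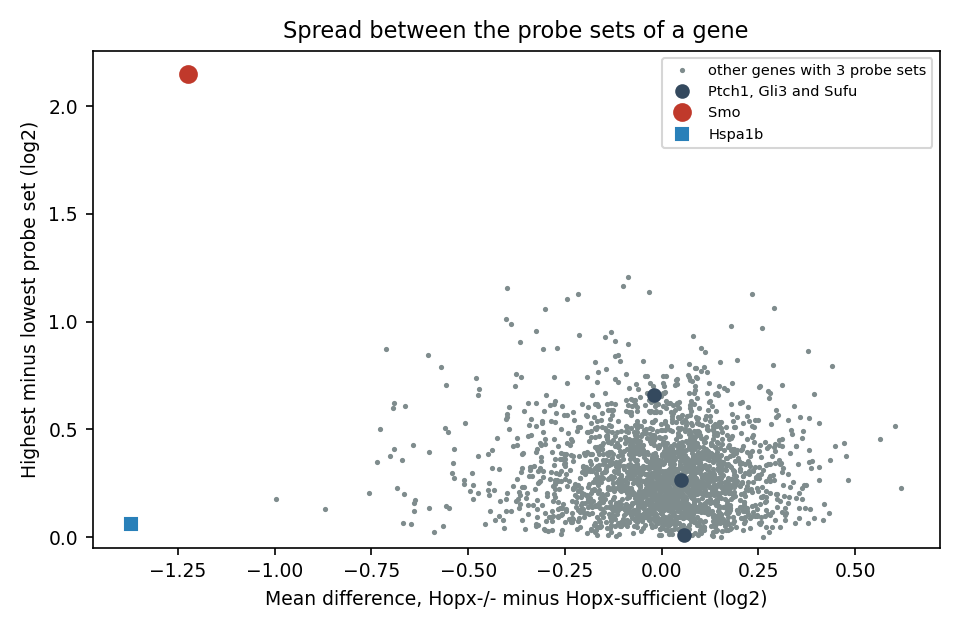
Mean log2 difference, Hopx-/- minus Hopx-sufficient (x axis), against the distance between the highest and the lowest probe set (y axis, log2) for the 2366 genes with 3 probe sets (points). Smo (red) lies alone at a mean of -1.22 and a span of 2.15, while Hspa1b (blue) is similarly low with probe sets close together and Ptch1, Gli3 and Sufu (dark) lie among the other genes.

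The ligand genes were close to 0. Shh, the ligand of limb and neural patterning, had differences of -0.21 and -0.11 (mean -0.16). Ihh, the ligand of cartilage and gut, differed by -0.062 in its 1 probe set. Dhh, the ligand of testis and peripheral nerve, differed by -0.015 and 0.30 (mean 0.14). All 3 means lay within the SD of 0.18 between probe sets of a gene, and whether any of the ligands was expressed cannot be told without levels.

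The receptor gene Ptch1, which represses Smo and is itself induced by the pathway, was measured most evenly. On the Hopx-/- array its 3 probe sets stood at 0.027, 0.029 and 0.030, and on the Hopx-sufficient array at the same sizes below 0. The differences were 0.053, 0.057 and 0.060, a mean of 0.057 with an SD of 0.0037 between probe sets. Sufu, the cytoplasmic inhibitor of the Gli factors, differed by -0.076, 0.034 and 0.19 (mean 0.050). Its outer values go opposite ways, and 2 of its probe sets share a design sequence.

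Of the Gli factors, Gli1, the activator whose transcript is the usual readout of the pathway, had 1 probe set, at 0.094 on the Hopx-/- array and -0.094 on the Hopx-sufficient array. Its difference of 0.19 (1.14-fold higher) was the largest of the 8 members other than Smo, with 84.9% of genes below it. Gli2, the main activator in mouse embryos, differed by -0.14 and 0.29 (mean 0.077) in probe sets designed from the same sequence. Gli3, the main repressor, differed by -0.34, -0.035 and 0.32 (mean -0.020). For both genes the probe sets lay on either side of 0, so their means give no direction.

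Apart from Smo, 5 members were higher and 3 lower, with a median of 0.053, against 0.0082 over all genes, and none reached 1.5-fold in either direction, where 1.25% of all genes were lower and 0.313% higher. Their 17 probe sets, 9 higher and 8 lower, all lay within the central 95% of probe sets, which ran from -0.51 to 0.42. None of the 17 was 1.5-fold apart, where 1.53% of all probe sets were lower and 0.544% higher by that size. Of the 17, 7 lay within the range of the 18 hybridization spike-in probe sets (-0.21 to 0.015, median -0.12), which carry no mouse sequence. That range lies mostly below 0, and the share of all probe sets within it was not counted, so nothing is read from the 7. The targets Ptch1 and Gli1 stood at 0.057 and 0.19 (1 probe set) beside the -1.22 of Smo. Without levels, whether either target was expressed cannot be told, so the activity of the pathway is not read from them.

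Around the core genes, 6 further lists of the pathway gave 72 measured genes, of which 47 were higher and 24 lower, with a median of 0.042. The lower share was 33.3%, against 47.4% of all genes (9358 of 18193 were higher), and nothing particular to the lists is read from it, nor from the counts of each list that follow. At least 1.5-fold lower were 2 of the 72 (2.78%, against 1.25% of all genes), at least 1.5-fold higher 1 (1.39%, against 0.313%), and none reached 2-fold.

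For lipidation and release of the ligands, 6 of 7 genes were higher, with a median of 0.090. The secreted release factor gene Scube1 (0.23), the ligand palmitoyltransferase gene Hhat (0.11) and its relative Hhatl (0.11) were the most different. Among co-receptors and decoys, 4 of 6 were higher, with a median of 0.029. Gpc3, a glypican that competes with Ptch1 for ligand, stood apart from the rest at 0.52 (1.43-fold higher, 1 probe set). Next came the co-receptor genes Cdon (-0.11) and Gas1 (0.063, with probe sets between -0.17 and 0.35).

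In the list of Smo trafficking and signal relay 10 of 14 genes were higher, with a median of 0.050. The exception in size was Efcab7, whose product anchors the Evc complex that relays the signal of Smo at the base of the cilium. It was 1.51-fold lower by its 1 probe set (-0.60). Evc2, a subunit of that same complex, was 1.37-fold higher (0.46, 1 probe set), and Prkacb, a catalytic subunit of the protein kinase A that restrains Gli factors, differed by 0.19 with probe sets between -0.054 and 0.46. For processing and turnover of Gli proteins 9 of 11 genes were higher, with a median of 0.039. They were led by Numb (0.35), which brings the ubiquitin ligase Itch (0.29) to Gli1, and by Spop (0.24), the ligase adaptor for Gli2 and Gli3. The 4 probe sets of Itch lay between 0.088 and 0.37 and the 3 of Spop between 0.13 and 0.41, each gene on 1 side of 0.

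Of 13 genes of the cilium and of intraflagellar transport, the machinery that carries Smo and Gli proteins along the cilium, 8 were higher and 5 lower, with a median of 0.052. Ift80, a subunit of the transport complex, was 1.53-fold higher by probe sets that lay at 0.52 and 0.70. Ift122 (-0.24) and Ift52 (0.23), 2 further subunits, followed in opposite directions.

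Of 21 genes reported elsewhere as Hedgehog targets, 10 were higher, 10 lower and 1 exactly 0, with a median of 0. Ccne1, which encodes cyclin E1 and belongs to the cell cycle genes as well, was 1.77-fold lower by probe sets that lay at -0.84 and -0.81. Osr1, a zinc finger factor gene, was 1.43-fold higher (0.51, 1 probe set). The survival gene Bcl2 was 1.32-fold higher, and its 5 probe sets ranged from 0.30 to 0.51. Of the D-type cyclin genes in this list, Ccnd1 differed by 0.22, with 3 probe sets between -0.0054 and 0.33. Ccnd2 differed by -0.19, with 7 probe sets between -0.24 and -0.14. Mycn, another target in proliferating cells, differed by 0.15 with probe sets on either side of 0. These 3 genes were singled out with their values known.

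**Figure D3:**
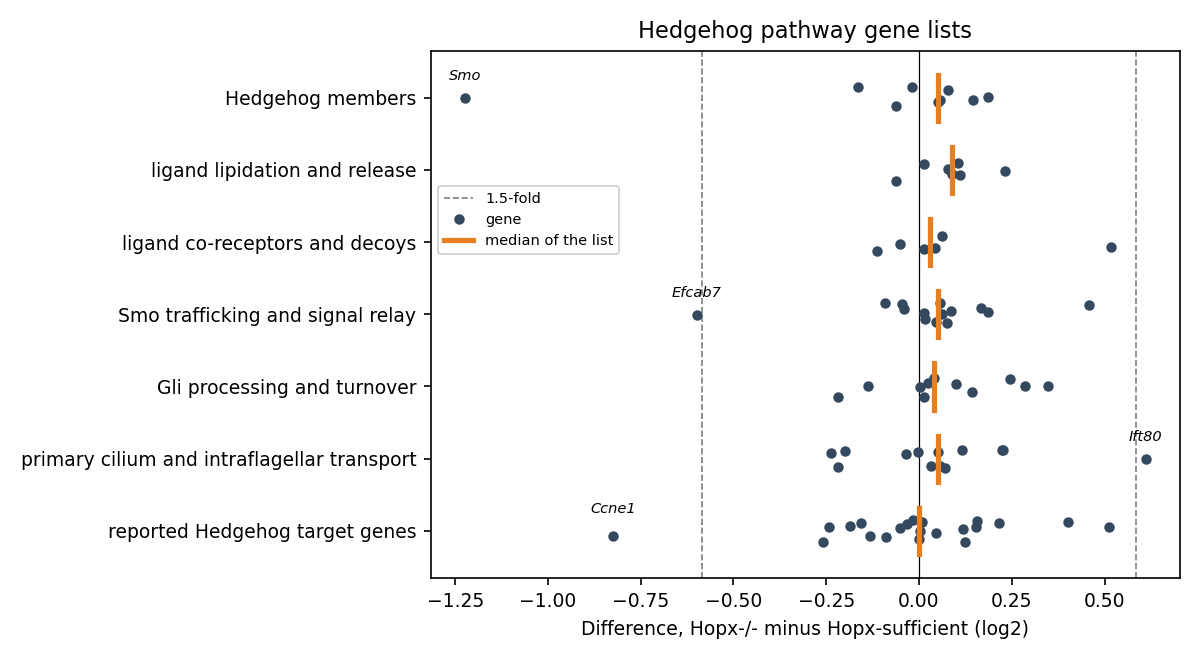
Log2 difference, Hopx-/- minus Hopx-sufficient, of each measured gene (points, spread vertically for legibility) in the 9 core genes and 6 further lists of the pathway, with the median of each list (orange). The medians lie between 0 and 0.090, and Smo, Ccne1, Efcab7 and Ift80 are the genes beyond 1.5-fold (dashed lines).

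The genes beside Smo on its chromosome did not share its difference. Of the 10 protein-coding genes on each side, 18 were measured, 8 higher and 10 lower, with a median of -0.011. None was at least 1.5-fold apart, where 1.25% of all genes were lower and 0.313% higher by that size. Nothing particular to the locus is read from that count. The 18 neighbours ranged from -0.36 (Klhdc10) to 0.38 (Ube2h). The nearest neighbours, the tetraspanin gene Tspan33 and Ahcyl2, stood at -0.091 (4 probe sets between -0.14 and -0.047) and 0.27 (3 probe sets between 0.15 and 0.33).

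**Figure D4:**
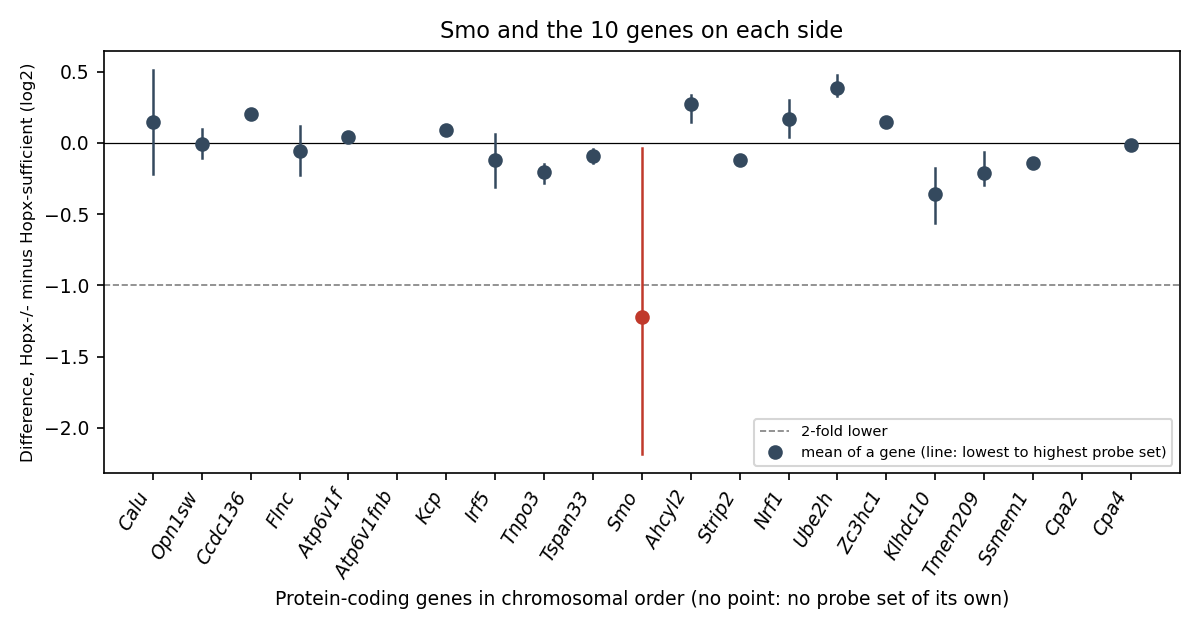
Log2 difference, Hopx-/- minus Hopx-sufficient, of Smo (red) and the 10 protein-coding genes on each side in chromosomal order (points: mean of a gene; lines: lowest to highest probe set). The 18 measured neighbours lie between -0.36 and 0.38 and Smo at -1.22.

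With 2 arrays, likeness to Smo can only mean a like difference. The 3 genes ranked just below Smo in value were Hspa1b (-1.37), the organic anion transporter gene Slco4a1 (-1.29) and the spermidine synthase gene Srm (-1.23). The 3 just above were Gm9706, the granzyme A gene Gzma (both -1.22) and the chemokine gene Cxcl10 (-1.21). Of these 6 genes, 4 rest on 1 probe set; those of Slco4a1 lay at -1.46 and -1.11.

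Smo is known to be expressed in stromal and endothelial cells, so markers of cells that a sort could carry along were set beside it. Fibroblast and stromal markers were higher in 5 of 10 cases, from -0.45 (Fap) to 0.39 (Pdgfra), with a median of -0.015. Endothelial markers were higher in 3 of 7, from -0.16 (Vwf) to 0.44 (Pecam1), with a median of -0.055. Macrophage and DC markers were higher in 6 of 8 (median 0.31), B cell markers in none of 5 (median -0.064), and T cell and Treg markers in 7 of 9 (median 0.28), among them Foxp3 at 0.28 and Il2ra, which encodes CD25, at -0.049. No marker in these lists was 1.5-fold apart, where 1.25% of all genes were lower and 0.313% higher by that size. By sign, 9358 of 18193 genes were higher, and nothing is read from the marker counts. The levels of the markers, and so their presence in the sorted cells, cannot be given. Their part in the difference of Smo was not tested.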

How the data were processed

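Total RNA was labelled with biotin and hybridised to single-colour Affymetrix arrays, per the labels' protocols. The authors deposited values on a log scale, taken here as log2, with each probe set centred on the mean of 2 arrays (largest row sum 1e-06). The log base, background correction, summarisation and scaling are not given in the sources used here. The number of arrays limits the precision.

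Of 45101 probe sets, 34945 had 1 symbol in the platform annotation of 2016. The gene IDs of 34741 of these were found in a RefSeq table (GRCm38.p6), through which symbols were updated. A further 932 with several symbols, 9160 with none and 64 controls were left out of gene counts. The column difference was used uncentred (median 0.0075), and a gene took the mean over its probe sets. The calculation of gene means was tested on simulated differences in which all probe sets of a changed gene moved alike. It does not cover a gene whose probe sets disagree, such as Smo. Python 3.11.15, numpy 2.4.6, pandas 2.3.3 and matplotlib 3.10.9 were used.

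The members, lists and thresholds were chosen with earlier results of these data known. Named are the 9 members, Hopx, the 3 most different genes of each further list, every gene there at least 1.5-fold apart, the 3 genes ranked on each side of Smo, and the range of its neighbours; others were picked after their values were seen. Alternatives were centring, the median or most different probe set, plain _at probe sets only, natural logs, leaving out each probe set of Smo, and other thresholds. Including probe sets with several symbols added none.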

Additional observations from a re-analysis of the deposited data

How the results depend on the processing

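No paired analysis was possible because there was a single array of either genotype, which also means that none could be omitted. The value of Smo (-1.22) stayed below 0 under every alternative run. It was -1.45 by the median and -2.18 by the most different probe set, -1.77 had the logs been natural, -0.74 over plain _at probe sets or without 1427049_s_at, which are the same pair of probe sets, and -1.82 without 1442215_at. With plain _at probe sets, or at 3-fold, 0 members were at least 2-fold or 3-fold lower, against 1. Over all genes, 25 were 2-fold lower and 2 higher. By the most different probe set these counts were 42 and 5, and with natural logs 104 and 24. At 1.5-fold they were 228 and 57 and at 3-fold 5 and 0, and 14 were lower over plain _at probe sets. Of 40 values of the other members under alternatives, 3 moved by more than the SD between probe sets and 1 changed sign, Gli2 at -0.14 over its plain _at probe set against 0.077. No other member exceeded 0.34 in size under any of these settings. Of 35 list medians 1 moved, that of co-receptors and decoys, to 0.23 by the most different probe set. A move was judged against the SD of 0.18 between probe sets of a gene.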

Other observations

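Groups related to Smo by protein family or by organelle, added after the pathway lists had been read, give further context. The Frizzled receptors are the closest relatives of Smo among membrane receptors. Of 10 measured Frizzled genes 8 were higher in Hopx-/- cells, with a median of 0.13 and a range from -0.051 (Fzd2) to 0.50 (Fzd9, 1 probe set). None was 1.5-fold apart, where 1.25% of all genes were lower and 0.313% higher by that size. By sign, 9358 of 18193 genes were higher, and nothing is read from the counts of these groups.

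All genes named Ift or Ttc30, the subunits of intraflagellar transport, were read in the same way. Of 17 measured genes 8 were higher and 9 lower, with a median of -0.0040. Ttc30a1 was 2.07-fold lower (-1.05) by its 1 probe set. It is 1 of the 25 genes at least 2-fold lower (0.137% of all genes), as is Smo. Ift80, in the same group, was 1.53-fold higher (0.61), so no common direction is read from the group. The close paralogs of Ttc30a1, Ttc30a2 (-0.058, 2 probe sets) and Ttc30b (0.34, 1 probe set), were not 2-fold lower. The arrays may not separate these paralogs from Ttc30a1. Of 8 Bbs genes, whose products form or assemble the complex that moves receptors out of cilia, 5 were higher, from -0.43 (Bbs12) to 0.17 (Bbs9), with a median of 0.033.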
